A study of Mus musculus with 12 samples.

Results

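Epidermal stem cells hold on to the basement membrane through hemidesmosomes, and 8 genes of that anchorage were followed in mouse hair follicle stem cells (HFSCs). The genes were chosen by name, for what their proteins are known to do, though with earlier results of these data known: Itga6, Itgb4, Col17a1, Cd151, Dst, Plec, Lama3 and Lamb3. All 8 were found by gene symbol among the 17885 genes of one deposited table and the 21915 genes of the other. All 8 passed the filter on low values in both tables.

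In a hemidesmosome, α6β4 integrin and the transmembrane collagen XVII bind laminin outside the basal cell, and the plakins plectin and BPAG1 tie them to keratin filaments inside it. Laminin-332 is a trimer that holds an α3 and a β3 chain, secreted by the same epithelial cells and joined to the dermis by collagen VII. In the hair follicle, the bulge stem cells rest on such a basement membrane, and α6 integrin on their surface is one of the antigens by which they are sorted.

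The study sequenced total RNA from back skin HFSCs of C57BL/6J mice in 12 libraries, 3 in each of 4 groups. One table compares anagen HFSCs of wildtype mice aged P28-30 with telogen HFSCs of wildtype mice aged P50-52, and so asks how the cells differ between growth and rest. The other compares Eed iKO HFSCs, labelled Eed -/-, with control HFSCs, labelled wildtype, at P70, to ask what these cells express without Eed, a core subunit of the Polycomb complex PRC2. In every group the sorted cells were EpCAM+, Sca1-, α6-integrin high and CD34+.

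The Eed iKO mice carried Eed fl/fl and the K15-CrePGR driver, whose Cre acts in the bulge once RU-486 is applied to the skin, here from P50 for a week. Control mice were given ethanol alone, so the deletion and RU-486 cannot be told apart. Likewise, hair cycle phase and age cannot be told apart. The Eed libraries are described as biological replicates that came from more than one litter, so some may share a litter. For the hair cycle libraries the number of animals that is stated can be read as 1 mouse per library or as several. The p-values measure the spread between these libraries.

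Libraries of the Eed table held 33269583 to 57063586 recovered reads, whereas no depth could be read from the hair cycle table. Eed mRNA came to 1099 ± 229.9 normalized counts in the libraries labelled Eed iKO and 1095 ± 149.6 in control (SD, n = 3 each), no lower, so directions below rest on the labels. The deletion was checked in the study by RT-qPCR of Eed and by staining for the PRC2 mark H3K27me3, both of which ran the way the labels say. Those assays are not part of the tables used here. Telogen replicate 1 stood apart, with a Spearman correlation across 10664 genes of 0.909 and 0.913 with the other telogen libraries, which had 0.934 between them. In anagen all 3 proliferation genes (Mki67, Top2a, Ccnb1) rose, and so did Dct of 3 melanocyte genes tested. Of 4 fibroblast genes tested, Col1a1 (log2 fold change 2.06) and Dcn (4.05) rose, while Col1a2 (-0.997, limma adjusted p = 0.108), lower in every anagen library, and Pdgfra (-1.02, limma adjusted p = 0.586) did not pass. The call of Col1a1 was lost without anagen replicate 3 and that of Dcn without anagen replicate 1 or 2, and Col1a2 passed without telogen replicate 1 (adjusted p = 0.0326). The summed normalized counts of these lists ran from 590 to 784 in telogen and from 15738 to 25811 in anagen for proliferation, from 316 to 649 and from 469 to 628 for fibroblasts, and from 72.7 to 151 and from 435 to 770 for melanocytes. Endothelial genes summed to 67.3 to 134 in telogen and 59.8 to 105 in anagen with Cdh5 and Cldn5 at 0, and Schwann cell genes to 23.8 to 49.7 and 6.38 to 13.8 with Sox10 at 0. Immune genes summed to 126 to 229 in telogen and 76.8 to 124 in anagen, interfollicular epidermis genes to 7621 to 15220 and 4144 to 12640, and sebaceous genes to 640 to 2190 and 1535 to 1812. Among HFSC genes, the list of Cd34, Krt15, Sox9, Lhx2, Nfatc1 and Lgr5 summed to 171666 to 446878 in telogen and 364854 to 447001 in anagen, and Ly6a, which encodes the excluded Sca1, stayed between 5.59 and 28.5. Krt15 made up most of these HFSC sums, at 142406 to 416765 in telogen and 344674 to 422433 in anagen. Of the 6 HFSC genes, 4 had a negative log2 fold change in anagen (median -0.28), and Cd34 alone was called, lower. Without overlap, 3 of the 6 were lower in anagen and 0 higher, against 15.2% and 18.1% of all genes tested. The 8 anchorage genes summed to 180592 to 200489 normalized counts in telogen and 120132 to 146330 in anagen. Dst alone made up most of these sums, at 116877 to 129932 in telogen and 66471 to 83923 in anagen. The mean log2 level of the 8, which weighs each gene alike, differed by -0.07. In the Eed table no cell type marker passed the test, and the summed counts of every cell type list overlapped between the groups, but single markers were apart. Of the 6 HFSC genes, Krt15 and Lhx2 were higher in every Eed iKO library and Nfatc1 and Lgr5 lower. Of all genes tested, 10.2% and 10.0% were apart in those directions. Krt15, with means of 575002 in control and 674381 in Eed iKO, made up most of the HFSC sum. Cd207, a gene of Langerhans cells, was at 0 in every control library and at 18.3, 13.3 and 23.7 normalized counts in Eed iKO (limma adjusted p = 0.130, or 0.0181 without the intensity trend). H2-Ab1, Tyrp1 and Mgst1 were also higher in every Eed iKO library and Col1a1 lower, and all 4 immune genes had a positive log2 fold change (median 1.21). Of the proliferation genes, Mki67 and Top2a passed without Eed iKO replicate 3 (adjusted p = 0.0307 and 0.0189). Among interfollicular epidermis genes, Krt1, Krt10 and Ly6a were highest in replicate 3 of both groups, while Ivl and Lor were highest in control replicate 1. Krt1 had 2138, 1802 and 11927 normalized counts in control and 1988, 772 and 11058 in Eed iKO. Krt10 had 7484, 5443 and 26842 in control and 10739, 3429 and 45520 in Eed iKO. The part of these other cells in the results below was not tested, and in RNA from sorted pools fewer cells of a type and less RNA per cell cannot be told apart.

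Between telogen and anagen, the 2 anchorage genes that were called went in opposite directions. Itga6 rose to 1.91 times its telogen mean, Dst fell to 0.62 of its telogen mean, and the other integrin chain, Itgb4, was lower in every anagen library than in any telogen library. With limma on log2(normalized count + 1) and Benjamini-Hochberg adjustment over 13457 genes, 2 of the 8 genes passed an adjusted p under 0.05, where 7.22% of all genes tested were called higher and 4.35% lower in anagen. A count of 1 gene in each direction among 8 does not set the group apart from that background. The anagen and telogen values did not overlap for 1 gene that was higher in anagen and 4 that were lower, against 18.1% and 15.2% of all genes tested. None of the 8 passed the thresholds of the study's methods, a log2 fold change over 2 in either direction with an unadjusted p under 0.05, which 5.10% of genes passed. The median log2 fold change of the 8 was -0.27 and that of all genes tested 0.01, and the mean log2 level of the 8 per library differed by -0.07 (12.77 ± 0.14 in telogen, 12.70 ± 0.13 in anagen, SD, n = 3). That difference was within the spread between libraries and had no stable sign, at 0.0034 without anagen replicate 1 and -0.15 without telogen replicate 1.

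**Figure D1:**
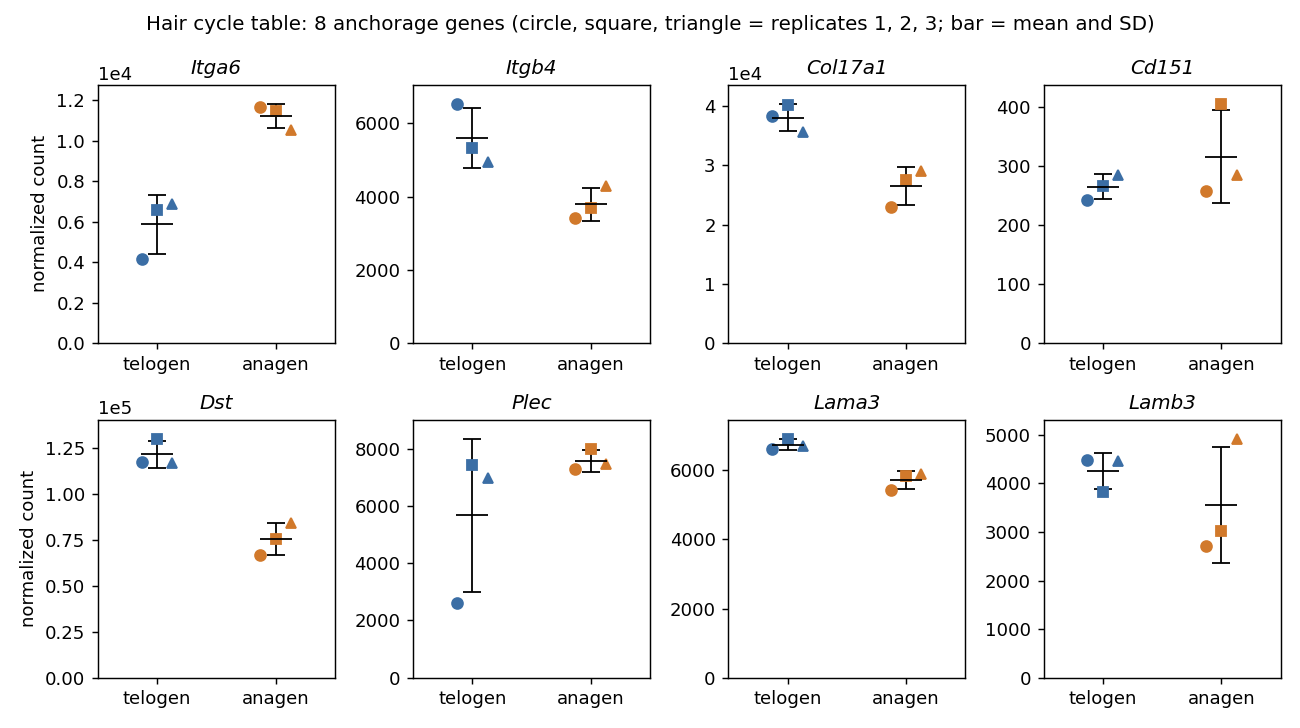
Normalized count of each anchorage gene in the 3 telogen (blue) and 3 anagen (orange) libraries, on linear axes that start at 0, with the mean and SD as bars. Itga6 is higher in all anagen libraries, Itgb4, Col17a1, Dst and Lama3 are lower in all of them, and telogen replicate 1 (circle) is far below the other telogen libraries for Plec.

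Itga6 encodes the α6 chain, which pairs with β4 in hemidesmosomes and with β1 elsewhere. The gene (ENSMUSG00000027111.15) lies on the plus strand of GRCm38 at chr2:71745616-71858416. Its normalized counts were 4177, 6580 and 6856 in telogen replicates 1, 2 and 3 and 11655, 11473 and 10531 in anagen replicates 1, 2 and 3. The anagen libraries lay close together and all above the telogen libraries, of which replicate 1 was the lowest. The log2 fold change was 0.97 (standard error 0.21, 95% interval 0.50 to 1.43, limma adjusted p = 0.0144). Without telogen replicate 1 it was 0.74 (adjusted p = 0.0114), while without anagen replicate 1 or 2 the call was lost (adjusted p = 0.0726 and 0.0671), as it was without the intensity trend of limma (adjusted p = 0.0923). Because α6-integrin protein was part of the sort gate, this gene was also a selection marker, and the part of the gate in its level was not tested. Of the other sort markers, Cd34 fell in anagen, from 7963 ± 1393 to 3444 ± 621.7 normalized counts (SD, n = 3), a log2 fold change of -1.21 (limma adjusted p = 0.00382).

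Itgb4 encodes the β4 chain, which pairs only with α6 and carries the long cytoplasmic tail that plectin binds. It (ENSMUSG00000020758.15) lies on the plus strand at chr11:115974709-116008412. Libraries of telogen held 6530, 5334 and 4952 normalized counts and those of anagen 3403, 3691 and 4281. Every anagen value was below every telogen value, opposite to Itga6. This came to a log2 fold change of -0.56 (standard error 0.18, 95% interval -0.97 to -0.15), which did not pass (limma adjusted p = 0.0759, unadjusted p = 0.0113).

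Since both chains are needed for one integrin, their ratio was taken within each library, where a scaling factor common to all its genes cancels. Such a common factor was not shown for the hair cycle table. The ratio of Itgb4 to Itga6 normalized counts was 1.56, 0.811 and 0.722 in telogen and 0.292, 0.322 and 0.407 in anagen. No library of one group reached the other, and telogen replicate 1 was the farthest from anagen. On the log2 scale the mean ratio was -0.04 ± 0.60 in telogen and -1.57 ± 0.25 in anagen (SD, n = 3), a difference of -1.53. The two-sided exact permutation test gave p = 0.1, the smallest that 3 libraries against 3 allow (0.133 adjusted over the 4 ratio tests made in all). Without telogen replicate 1 the difference was -1.18.

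Col17a1 encodes collagen XVII, the transmembrane collagen of the hemidesmosome, known to be needed for the upkeep of bulge stem cells. The gene (ENSMUSG00000025064.14 in both tables) lies on the minus strand at chr19:47646344-47692094. Its normalized counts were 38423, 40192 and 35641 in telogen and 22912, 27617 and 29037 in anagen. All anagen libraries lay below all telogen libraries, and telogen replicate 1 did not stand out. At a log2 fold change of -0.53 (standard error 0.18, 95% interval -0.92 to -0.13), it did not pass (limma adjusted p = 0.0830, unadjusted p = 0.0132).

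Cd151 encodes a tetraspanin that associates with laminin-binding integrins. It (ENSMUSG00000025510.14) lies on the plus strand at chr7:141467392-141471473. It was the lowest of the 8 genes in these libraries, at 242, 266 and 284 normalized counts in telogen, against 257, 404 and 284 in anagen. The groups overlapped, and anagen replicate 2 was the highest. Cd151 had a log2 fold change of 0.23 (95% interval -0.40 to 0.86, limma adjusted p = 0.643), or 0.036 without anagen replicate 2.

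Of the plakins, Dst fell in anagen, and Plec overlapped between the groups. Dst encodes BPAG1, whose epithelial form links collagen XVII and β4 to keratin. The gene (ENSMUSG00000026131.18) spans chr1:33908225-34308661 on the plus strand, with 14 coding transcripts of 776 to 23279 bases in GENCODE vM21, and the deposited value covers them all. Together they came to 117516, 129932 and 116877 normalized counts in telogen and to 66471, 75559 and 83923 in anagen. The highest anagen library stayed well below the lowest telogen library. Dst fell in anagen by 0.69 on the log2 scale (standard error 0.19, 95% interval -1.12 to -0.27, limma adjusted p = 0.0411). The size held when any library was left out (-0.78 to -0.61), but in 5 of those 6 fits the adjusted p rose above 0.05, as it did with replicate number as a block (adjusted p = 0.101), without the filter (adjusted p = 0.0828) and without the trend (adjusted p = 0.119). Without telogen replicate 1 it was 0.0215.

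Promoter sequence was at hand for 4 of the 8 genes, as 7 windows of 250 bases before to 50 after a RefSeq start (GRCm38.p6). Those of Dst and Col17a1 are shown because the RNA of both was lower in every anagen library, and because the Dst windows, both at RefSeq starts of the gene, differ in make-up. Capitals mark matches on either strand to 3 motifs. The GC box was searched as GGGCGG. For the TATA box the letters were TATAAA. RUNX was searched as TGTGGT. The first Dst window is chr1:34011345-34011644, the second chr1:34160010-34160309, both on the plus strand, and the Col17a1 window is chr19:47691993-47692292 on the minus strand, each read 5′ to 3′ along its gene.
Dst, first window: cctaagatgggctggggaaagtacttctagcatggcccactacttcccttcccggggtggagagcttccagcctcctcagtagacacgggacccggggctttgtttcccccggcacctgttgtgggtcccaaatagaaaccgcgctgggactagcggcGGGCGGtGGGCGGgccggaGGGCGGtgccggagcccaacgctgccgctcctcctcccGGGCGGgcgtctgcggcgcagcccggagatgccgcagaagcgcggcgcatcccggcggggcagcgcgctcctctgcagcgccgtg
Dst, second window: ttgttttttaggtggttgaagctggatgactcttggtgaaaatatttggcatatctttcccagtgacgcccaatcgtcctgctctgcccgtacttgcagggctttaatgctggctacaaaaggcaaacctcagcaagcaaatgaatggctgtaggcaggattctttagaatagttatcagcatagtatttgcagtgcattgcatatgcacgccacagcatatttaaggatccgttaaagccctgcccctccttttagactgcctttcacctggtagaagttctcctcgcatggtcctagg
Col17a1: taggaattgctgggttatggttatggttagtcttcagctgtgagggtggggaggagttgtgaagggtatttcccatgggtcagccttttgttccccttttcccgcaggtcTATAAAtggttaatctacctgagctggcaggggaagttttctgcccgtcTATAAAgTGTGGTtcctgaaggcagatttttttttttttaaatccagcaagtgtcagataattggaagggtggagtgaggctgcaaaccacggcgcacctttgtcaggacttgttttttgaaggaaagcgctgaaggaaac
The first Dst window was 70.3% G and C and held 4 GC boxes, which 35.7% of all 32851 promoters in the table hold at least once. No coding transcript is annotated to start inside that window, and the next annotated coding start downstream is that of Dst-202, at chr1:34011813. The second was 46.0% G and C, held none of the 5 motifs searched (those above and those of AP-1 and ETS), and lies just ahead of the annotated starts of 3 coding transcripts, Dst-213, Dst-215 and Dst-217. The Col17a1 window was 46.3% G and C and held 2 TATA boxes and 1 RUNX match, each found in 13.6% and 16.8% of all promoters. A match is only a match of letters, and these values do not say which Dst start was used. AP-1 was searched as TGANTCA, found in 7.81% of all promoters. ETS was searched as CGGAA, found in 29.9%.

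Plec encodes plectin, the plakin that binds β4 and keratin. It (ENSMUSG00000022565.15) lies on the minus strand at chr15:76170974-76232574 and has 21 coding transcripts. Its normalized counts were 2611, 7443 and 6994 in telogen and 7285, 8005 and 7456 in anagen. Telogen replicate 1 was far below the rest, and the other telogen libraries reached the anagen range. The log2 fold change of 0.56 (95% interval -0.18 to 1.29, limma adjusted p = 0.308) became 0.07 without that library. Beside it, Krt5 was low in the same library (50461 normalized counts against 155865 and 131957 in telogen replicates 2 and 3).

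Lama3 encodes the α3 chain of laminin-332. It (ENSMUSG00000024421.16) lies on the plus strand of chromosome 18 with 2 coding transcripts of 10548 and 5551 bases. Telogen libraries held 6607, 6909 and 6694 normalized counts of it and anagen libraries 5435, 5830 and 5900. The groups did not overlap and each was narrow, but the log2 fold change was small, -0.24 (95% interval -0.59 to 0.12, limma adjusted p = 0.372). Lamb3, the β3 chain (ENSMUSG00000026639.18, plus strand, chr1:193207699-193343878), had 4487, 3832 and 4458 normalized counts in telogen, against 2714, 3011 and 4919 in anagen. Anagen replicate 3 was the highest of the 6 libraries, while the other anagen libraries were the lowest. For Lamb3 the log2 fold change was -0.31 (95% interval -0.82 to 0.20, limma adjusted p = 0.417), or -0.57 without anagen replicate 3 and -0.14 without anagen replicate 1. The log2 ratio of Lamb3 to Lama3 differed by -0.07 between anagen and telogen (exact permutation p = 0.8, 0.8 adjusted), and its sign turned when anagen replicate 1 or 2 was left out (0.057 and 0.033).

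Pairs of 4 more kinds were set side by side after the values had been seen and carry no test. The log2 ratio of Dst to Itga6 was 4.81, 4.30 and 4.09 in telogen and 2.51, 2.72 and 2.99 in anagen, a difference of -1.66. That of Col17a1 to Itga6 differed by -1.49, again without overlap. Between genes that were both lower the gap was small, with Col17a1 to Dst at -1.61, -1.69 and -1.71 in telogen and -1.54, -1.45 and -1.53 in anagen. Plec to Dst was -5.49, -4.13 and -4.06 in telogen and -3.19, -3.24 and -3.49 in anagen, so the plakins parted even without telogen replicate 1.

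Genes next to the 8 in the same structures had other patterns. Col7a1, the anchoring fibril collagen, ranged from 1483 to 5458 in telogen and from 3060 to 3605 in anagen (log2 fold change 0.12, limma adjusted p = 0.867). Of the 3 keratins, none passed, and their median log2 fold change was 0.79, that of Krt5. With a library left out it ran from 0.29 to 1.10 for Krt5 and from 0.0065 to 0.78 for Krt15. Telogen replicate 1 was low in Krt15 as in Krt5 (142406 against 416765 and 350444 in telogen replicates 2 and 3). Krt14 had 8334, 15817 and 11816 normalized counts in telogen, against 27781, 17214 and 18468 in anagen, with no overlap (limma adjusted p = 0.0622).

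For the counts of called genes that follow, the shares over all genes tested were 7.22% called higher and 4.35% called lower in anagen. Of 10 other basement membrane genes tested, 3 rose in anagen, none fell, and 9 had a positive log2 fold change, with a median of 0.99 beside 0.01 for all genes. Lamc1, the γ1 chain of other laminins, had a log2 fold change of 0.92 (limma adjusted p = 0.0205). Npnt, the α8β1 ligand nephronectin made by bulge cells, had 1.12 (limma adjusted p = 0.00268). Hspg2, perlecan, had 1.89 (limma adjusted p = 0.0406). Of 12 focal adhesion genes, Itgb6 (log2 fold change 1.58) and Vcl (0.74) rose and Itga2 (-0.93) and Fermt1 (-0.72) fell (limma adjusted p up to 0.0413). Of 6 genes for laminin processing and collagen XVII shedding, Adam9 alone passed, and rose (0.98, limma adjusted p = 0.0159). Of 7 transcription factors of basal keratinocytes, Trp63 alone passed, and rose from 15783 ± 2502 to 29490 ± 796.9 normalized counts (SD, n = 3; log2 fold change 0.91, limma adjusted p = 0.00935). Of these 9 calls, those of Itgb6 and Npnt held with any library left out. The others were lost in some of the 6 refits, Trp63 in 1 (without anagen replicate 2), Adam9 in 2 (without anagen replicate 1 or 2), Lamc1 and Fermt1 in 4, and Hspg2, Itga2 and Vcl in 5, where the highest adjusted p ranged from 0.0538 for Trp63 to 0.169 for Vcl. Hspg2 (0.122), Fermt1 (0.155), Lamc1 (0.104), Itga2 (0.0954) and Adam9 (0.0989) lay between. Without the intensity trend of limma, Itgb6 (adjusted p = 0.0125) and Npnt (adjusted p = 0.0419) alone of the 9 kept their call.

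In the Eed comparison none of the 8 genes was called. Itga6 and Dst were higher in every library labelled Eed iKO than in any control library, and no gene of the 8 was lower in all of them. With limma and Benjamini-Hochberg adjustment over 15008 genes, 0 of 8 passed, where 0.0267% of all genes did. On the recovered reads 0 of 8 passed with the quasi-likelihood test of edgeR, against 0.0333% of all genes, and 0 of 8 with DESeq2, against 4.48%. At an unadjusted p under 0.05 the count was 1 of 8, against 14.7% of all genes. None passed the thresholds of the methods, a log2 fold change over 1.5 with an unadjusted p under 0.05, which 1.75% of genes did. The 2 genes that were higher without overlap and the 0 that were lower compare with 10.2% and 10.0% of all genes. The median log2 fold change of the 8 was 0.12. Per library, the mean log2 level of the 8 was 15.47 ± 0.13 for control (SD, n = 3) and 15.57 ± 0.05 for Eed iKO libraries, a difference of 0.10 that ran from 0.043 without control replicate 1 to 0.17 without control replicate 3.

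**Figure D2:**
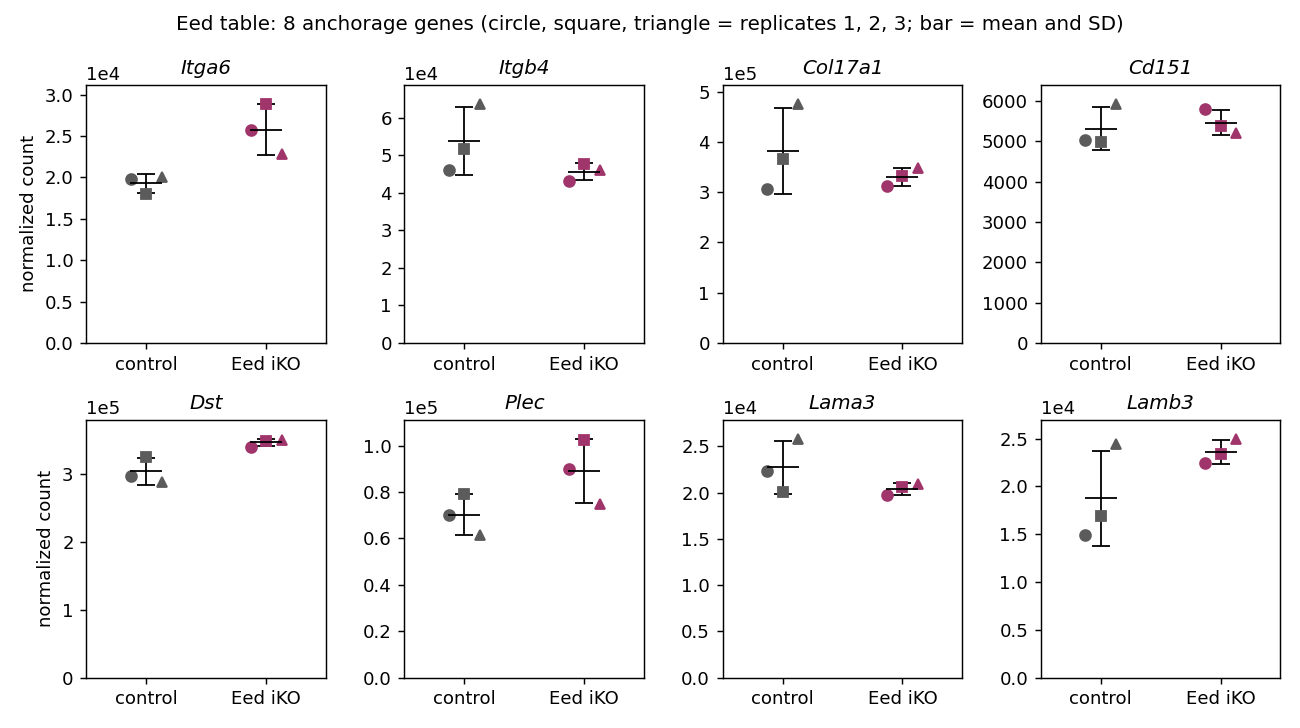
Normalized count of each anchorage gene in the 3 control (grey) and 3 Eed iKO (purple) libraries, on linear axes that start at 0, with the mean and SD as bars. Itga6 and Dst do not overlap between the groups, and control replicate 3 (triangle) is the highest control library for Itgb4, Col17a1, Cd151, Lama3 and Lamb3, and by little for Itga6.

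Control libraries 1, 2 and 3 held 19777, 18005 and 20101 normalized counts of Itga6, and Eed iKO libraries 1, 2 and 3 held 25681, 28855 and 22767. The groups were apart, with Eed iKO replicate 3 nearest to the controls. This made a log2 fold change of 0.41 (standard error 0.14, 95% interval 0.11 to 0.72), which limma did not call (adjusted p = 0.207, unadjusted p = 0.0128). The adjusted p was 0.204 with edgeR and 0.0898 with DESeq2, so the gene was not called by any of the 3 tools. Itgb4 had 45990, 51553 and 63607 in control and 43132, 47723 and 46004 in Eed iKO. Those ranges overlapped (log2 fold change -0.22, 95% interval -0.57 to 0.12, limma adjusted p = 0.532, or -0.095 without control replicate 3).

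The ratio of Itgb4 to Itga6 was 2.33, 2.86 and 3.16 in control and 1.68, 1.65 and 2.02 in Eed iKO. All libraries labelled Eed iKO were below all control libraries. On the log2 scale the means were 1.47 ± 0.23 and 0.83 ± 0.16 (SD, n = 3), a difference of -0.64 that stayed between -0.76 and -0.54 with any library left out. The two-sided exact permutation p was 0.1, again the smallest possible, and 0.133 after adjustment over 4 tests.

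**Figure D3:**
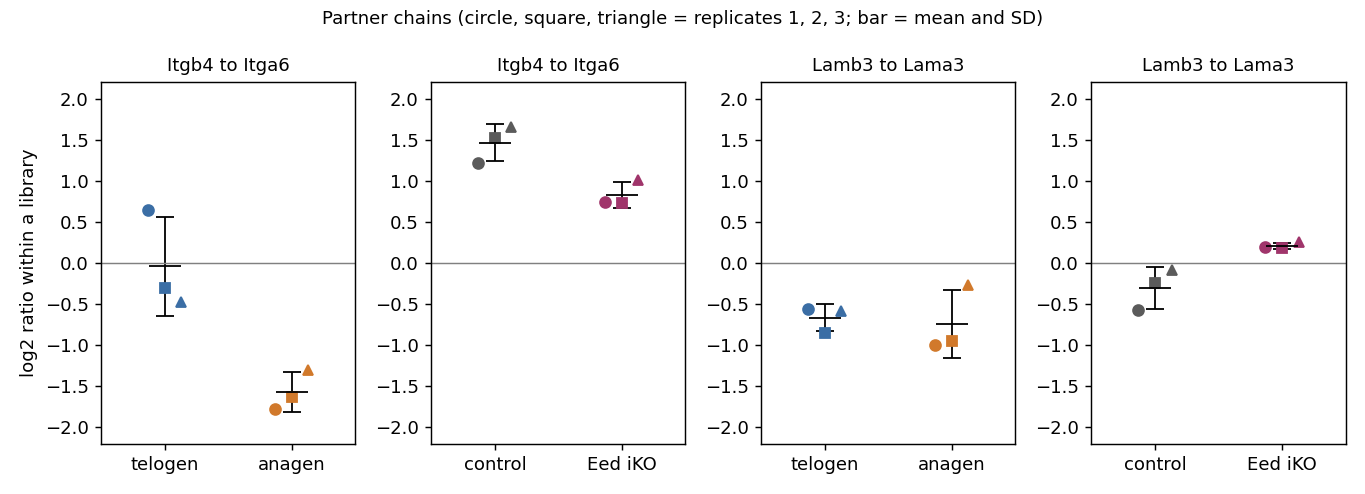
Log2 ratio of normalized counts of partner chains within each library, Itgb4 to Itga6 in the left panels and Lamb3 to Lama3 in the right panels, with the mean and SD as bars (n = 3). Itgb4 to Itga6 is lower in all anagen than telogen libraries and in all Eed iKO than control libraries, while Lamb3 to Lama3 is apart in the Eed comparison and overlaps in the hair cycle.

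Col17a1 had 306100, 366706 and 475706 normalized counts in control and 311622, 332002 and 348639 in Eed iKO. The control libraries alone spanned the whole Eed iKO range, with replicate 3 on top. For Col17a1 the log2 fold change was -0.19 (95% interval -0.66 to 0.29, limma adjusted p = 0.735), and it ran from -0.34 without control replicate 1 to -0.02 without control replicate 3. Cd151 had 5033, 4971 and 5922 in control and 5793, 5385 and 5207 in Eed iKO, with a log2 fold change of 0.04 (95% interval -0.26 to 0.35, limma adjusted p = 0.912).

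Dst had 297189, 325156 and 287451 normalized counts in control and 339694, 348014 and 349774 in Eed iKO. The Eed iKO libraries agreed closely and lay just above the controls, a log2 fold change of 0.19 (95% interval -0.21 to 0.59, limma adjusted p = 0.666). Plec had 70103, 79293 and 61446 in control and 89805, 102560 and 74795 in Eed iKO. Eed iKO replicate 3 fell within the control range, and the log2 fold change was 0.34 (95% interval -0.04 to 0.72, limma adjusted p = 0.391).

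For the laminin chains, Lama3 had 22291, 20111 and 25827 normalized counts in control and 19701, 20572 and 20939 in Eed iKO (log2 fold change -0.15, 95% interval -0.45 to 0.15, limma adjusted p = 0.655), and the change was -0.054 without control replicate 3. Lamb3 had 14930, 16943 and 24402 in control and 22484, 23393 and 24977 in libraries labelled Eed iKO. Control replicate 3 sat among the Eed iKO libraries and the other controls well below them. The log2 fold change of 0.36 (95% interval -0.03 to 0.76, limma adjusted p = 0.375) became 0.57 without that control. The log2 ratio of Lamb3 to Lama3 was -0.58, -0.25 and -0.08 in control and 0.19, 0.19 and 0.25 in Eed iKO. Here control replicate 3 stayed below the Eed iKO libraries, and the difference was 0.51 (exact permutation p = 0.1, 0.133 adjusted), or 0.37 to 0.62 with any library left out. Of the pairs without a test, Col17a1 to Itga6 differed by -0.60 and Col17a1 to Dst by -0.38 on the log2 scale, both without overlap, while Dst to Itga6 (-0.22) and Plec to Dst (0.15) overlapped.

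No gene of the neighbouring lists was called by limma in the Eed comparison, among Col7a1, 3 keratins, 10 other basement membrane genes, 12 focal adhesion genes, 6 processing genes and 7 transcription factors. DESeq2 on the recovered reads, which called 4.48% of all genes, called 3 of them, namely Krt14 (adjusted p = 0.000771), higher in Eed iKO, and Fermt1 (adjusted p = 0.00124) and Pxn (adjusted p = 0.00951), both lower. Krt14 had 62887, 65366 and 87613 normalized counts in control and 118195, 141718 and 118609 in Eed iKO (log2 fold change 0.82, 95% interval 0.43 to 1.21, limma adjusted p = 0.104). Krt5 had a log2 fold change of 0.01 (95% interval -0.46 to 0.48). Mki67 was 639, 2543 and 928 in control and 6125, 6301 and 609 in Eed iKO, so Eed iKO replicate 3, the library nearest to control for Itga6 and Plec, was also low in this proliferation gene. The part of proliferation in these values was not tested.

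**Figure D4:**
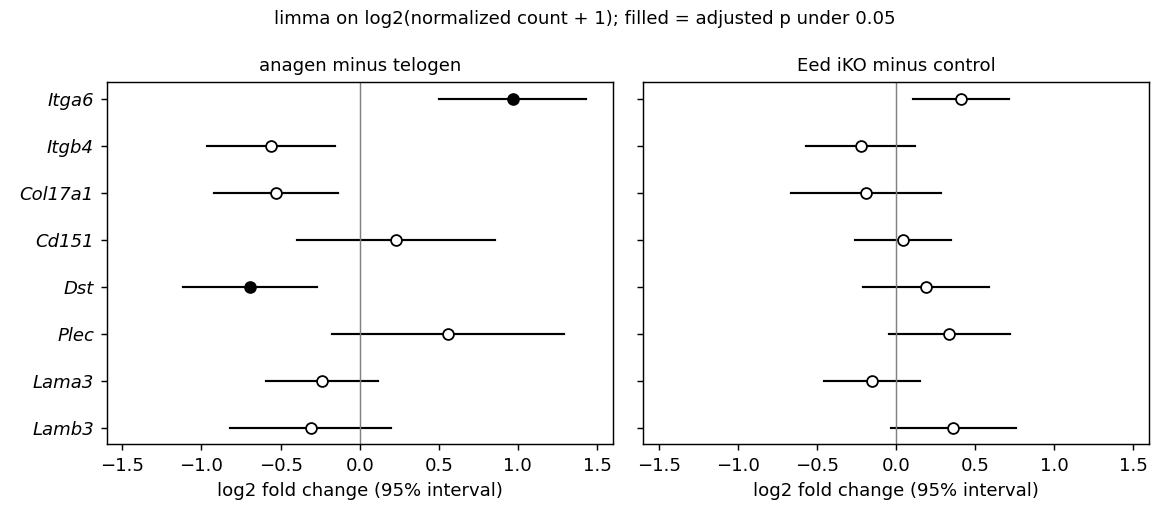
Log2 fold change of each anchorage gene with its 95% interval from limma on log2(normalized count + 1), anagen minus telogen on the left and Eed iKO minus control on the right, with filled points for an adjusted p under 0.05. Only Itga6 (0.97) and Dst (-0.69) in the hair cycle are filled, and the Eed intervals other than that of Itga6 include 0.

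The 2 tables were normalized separately and the difference between the comparisons was not tested. Side by side, the log2 fold changes in anagen and in Eed iKO were 0.97 and 0.41 for Itga6, -0.56 and -0.22 for Itgb4, and -0.69 and 0.19 for Dst. Lamb3 was at -0.31 and 0.36. Itga6 was higher and the Itgb4 to Itga6 ratio lower without overlap in both comparisons, while Dst was lower without overlap in anagen and higher without overlap in the libraries labelled Eed iKO.

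To compare levels between genes, normalized counts were divided by the length of the longest coding transcript, in kilobases. Col17a1 was first in every group, with 6816 ± 410 per kilobase in telogen, 4746 ± 574 in anagen, 59190 ± 3318 in Eed iKO and 68511 ± 15380 in control (SD, n = 3). Dst was the second in each. In telogen the order went on with Itga6, Itgb4, Lamb3, Lama3, Plec and Cd151, where Itga6 and Itgb4, and Itgb4 and Lamb3, overlapped between libraries. In anagen Itga6, at 2603 ± 140, stood clear of the rest, while Lamb3, Itgb4, Lama3 and Plec overlapped one with the next. In control, Itgb4 was the third and stood clear, and Plec, Itga6, Lamb3 and Cd151 overlapped in turn before Lama3. In Eed iKO, Itga6 and Plec overlapped, as did Plec and Lamb3, ahead of Cd151 and Lama3. The order depends on the transcript: with the 8788 bases of Dst-213, Dst came to 13819 ± 838 in telogen and passed Col17a1 in both hair cycle groups, and with the 5551 bases of Lama3-202, Lama3 moved up to the fourth place there.

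**Figure D5:**
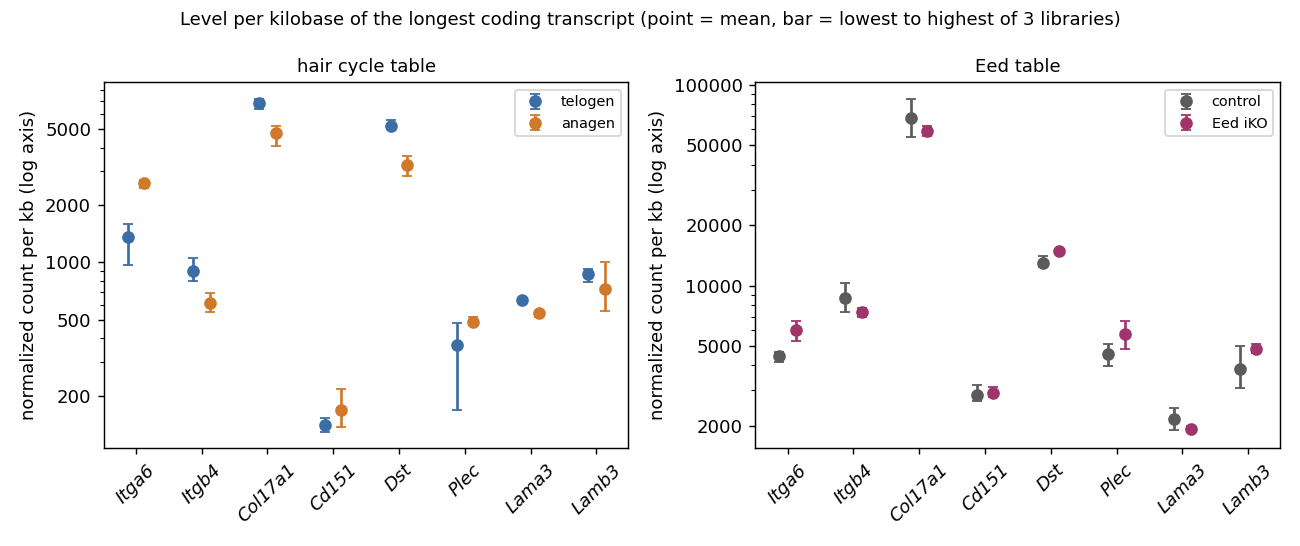
Normalized count per kilobase of the longest coding transcript for each anchorage gene, on log axes, with points for means and bars from the lowest to the highest of 3 libraries. Col17a1 and Dst lead in both tables, and Itga6 stands clear above Itgb4 in anagen (2603 against 611 on average) but overlaps it in telogen.

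Across the 12 libraries, with log2 values centred on the mean of each table, Itgb4 and Col17a1 had a Pearson correlation of 0.93 and Col17a1 and Lama3 one of 0.87. Itga6 correlated with Itgb4 at -0.86 and with Plec at 0.81, and Dst and Plec were at -0.27. These values share libraries and include the group differences, so they are descriptions. Of 13194 other genes, 2310033P09Rik, 4931406P16Rik, Man1b1, Cntfr and Cblc followed the mean of the 8 most closely, with correlations of 0.85 to 0.88 over the 12 libraries.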

How the data were processed

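RNA-seq of sorted HFSCs was analysed in 12 libraries, grouped by the sample labels. The authors quantified reads against mouse transcripts (Gencode vM20) with kallisto 0.42.5 and used DESeq2 (listed as 3.11 in the submitters' processing notes, which name mm10). The deposited signal is a count per protein-coding gene, taken to be scaled by the DESeq2 size factor of its library, and called the normalized count here. In the hair cycle table only 8.92% to 21.7% of values above 0 were whole multiples of 1 constant per library. A single factor per library was therefore not shown there. The authors also deposited DESeq2 log2 fold changes with standard errors, the test score of each gene and its p-values, none of which were used.

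Each table was tested alone with limma 3.58.1 in R 4.3.3 on log2(normalized count + 1), which understates changes of low genes, with an intensity trend, after filterByExpr of edgeR 4.0.16 (minimum 10), which left 15008 genes in the Eed table and 13457 in the hair cycle table. A call was a Benjamini-Hochberg adjusted p under 0.05. Whole reads were recovered from the Eed table, where 100% of values were whole multiples of 1 constant (tolerance 0.05), for edgeR and DESeq2 1.42.0. The code was tested on simulated data with genes of known change. Coordinates came from GENCODE vM21 (GRCm38), where Col17a1 was matched without the version of its identifier. Of exon bases, 7.66% of Itgb4, 7.04% of Cd151 and 3.63% of Dst overlap another gene, so their values are less certain.

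The members, the gene lists, the tests and the rule for named genes (the 8 members, list genes that were called, lists of at most 5, Krt5, Krt14, sort markers and the 5 genes most correlated with the mean of the 8) were chosen with earlier results of these data known. A gene that falls under this rule is not reported here.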

Additional observations from a re-analysis of the deposited data

How the results depend on the processing

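The fits were repeated with the pseudocount at 0.1, without the filter, with replicate number as a block (replicate block), with TMM scaling, without the intensity trend, without each library, at the thresholds of the methods and, in the Eed table, with edgeR and DESeq2 on recovered reads. For the fold changes of the 8 genes in the Eed comparison, 103 refits kept direction and call and 1 was reversed: Cd151, at -0.00072 without control replicate 2 (adjusted p = 0.999, limma) and up to 0.13 with another library left out. In the hair cycle, 77 kept both and 11, all of Itga6 or Dst, lost the call and kept the direction. The 4 genes called in the Eed comparison became 424 with the replicate block, 2 without the trend, 673 with DESeq2, 263 at the thresholds of the methods, and 1 to 188 with a library left out, where 188 was without Eed iKO replicate 3. The 1556 genes called in the hair cycle became 842 without the trend, 686 at the thresholds of the methods, and 590 to 1534 with a library left out. The 2 anchorage genes called there became 1 without the filter, 1 with the replicate block, 0 without the trend, 0 at the thresholds of the methods, and 0 to 2 with a library left out. The cause was not tested. The Lamb3 to Lama3 difference in the hair cycle ran from -0.31 to 0.057 with a library left out, 0.057 and 0.033 being without anagen replicates 1 and 2.

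The labels give same-numbered libraries only a number in common, and a shared batch or litter was not tested. Their deviations correlated at 0.039, 0.068 and 0.193 in the Eed table and at -0.035, -0.071 and -0.029 in the hair cycle table. Only 1 of these 6 was over the 0.1 set here for every pair. Differently numbered libraries of the Eed table ranged from -0.145 to 0.077. Control replicate 3 had a Spearman correlation of 0.973 with Eed iKO replicate 3, and of 0.963 and 0.968 with the other controls. Control replicates 1 and 2 had 0.965 and 0.960 with theirs, and 0.967 with each other. With the block, the adjusted p was 0.0989 for Itga6 in the Eed comparison and 0.0236 in the hair cycle. Of the other genes described, Vcl (0.0820) and Fermt1 (0.0655) lost their call in the hair cycle with the block, and Top2a (0.0352), Krt14 (0.0090), Fermt1 (0.0159) and Pxn (0.0142) gained one in the Eed comparison. With 3 libraries a group, no ratio could reach p under 0.1. The unknown depth of the hair cycle table leaves the counting error of its genes unknown, among them Cd151, the lowest of the anchorage genes there. The ratio pairs without a test and the other transcript lengths were chosen after seeing the data.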
